A study of Mus musculus with 12 samples.

Results

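The genes described here are those of the TREM2, TYROBP and APOE axis of microglia, the resident macrophages of the brain. They were taken by name from the panel, and all 6 that were sought (Apoe, Trem2, Tyrobp, Syk, Plcg2 and Inpp5d) are among its 770 genes. RNA of fixed microglia was counted with the NanoString nCounter Neuroinflammation panel, in which a colour-coded probe is counted for each gene without amplification. Cells came from C57BL/6 mice, which the labels write as C57B6, in 3 groups of 4 samples. Adult microglia were from mice 12 to 20 weeks old and were not separated by ERK1/2 phosphorylation, while the other groups came from mice over 80 weeks old and were sorted, by an antibody to ERK1/2 phosphorylated at its activating residues, into cells with low (P-ERK1/2 Low) or high (P-ERK1/2 High) staining. All groups shared the CD11b selection, the fixation and the permeabilization. The methods give the gate for YFP+, CD45 intermediate, Ly6G- cells with the separation by P-ERK1/2. They do not state whether the adult cells passed it. A legend calls the adult cells unsorted, while the results of the study describe adult as well as aged cells as sorted. Each sample pooled the CNS of a male and a female mouse, and whether a P-ERK1/2 Low and a P-ERK1/2 High sample came from the same mice was not stated in the labels or methods, so these samples may not be independent. The labels give mice and cells as untreated, whereas a legend of the study places tamoxifen in both age groups, more recently in the adult mice. The YFP reporter is driven by the Cx3cr1 promoter, so that gate selects cells in which that promoter is or was active. Age, the interval since tamoxifen and the P-ERK1/2 gate, with possibly the sort itself, all differ between the adult cells and either aged group, so these cannot be told apart in comparisons with the adult group.

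TREM2 is a lipid-binding receptor on the microglial surface, and apolipoprotein E, encoded by Apoe, is one of its ligands. TREM2 has no signalling tail of its own and pairs with the adaptor TYROBP (DAP12), whose ITAM motif recruits the kinase SYK once it is phosphorylated by Src-family kinases. SYK activates phospholipase C gamma 2, encoded by Plcg2, and the lipid phosphatase SHIP1, encoded by Inpp5d, opposes the PI3-kinase arm of the same cascade. Variants near the human counterparts of several of these genes are known for their association with Alzheimer disease.

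For the ligand and the receptor gene, the reference promoters are shown because Apoe was called lower in P-ERK1/2 High cells and Trem2 was not. RefSeq windows of 250 bases before a start site (GRCm38.p6) were found for 5 of the 6 genes, 8 windows in all, and none was held for Tyrobp. Capitals mark the 6 bases GAGGAA or, on the other strand, TTCCTC, the core letters to which PU.1 and other ETS factors of the myeloid lineage are known to bind. The first window, before the most upstream of 3 listed Apoe starts, lies at chr7:19699189-19699438 on the minus strand, and the second, upstream of Trem2, at chr17:48346151-48346400 on the plus strand.
Apoe: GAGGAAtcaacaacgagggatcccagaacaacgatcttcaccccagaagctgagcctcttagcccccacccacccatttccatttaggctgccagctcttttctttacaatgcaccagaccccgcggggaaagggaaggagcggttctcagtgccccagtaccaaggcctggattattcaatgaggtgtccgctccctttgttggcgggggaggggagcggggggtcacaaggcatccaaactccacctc
Trem2: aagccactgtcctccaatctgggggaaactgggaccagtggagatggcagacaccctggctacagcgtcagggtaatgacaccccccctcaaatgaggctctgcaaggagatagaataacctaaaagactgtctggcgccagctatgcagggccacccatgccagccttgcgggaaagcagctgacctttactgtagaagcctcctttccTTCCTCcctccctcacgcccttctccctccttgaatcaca
These letters occurred in 5 of the 8 windows, in 2 of the 3 for Apoe, in 1 of the 2 for Syk, in those for Trem2 and Inpp5d and not in that for Plcg2, and in 23.3% of the 32851 windows of all genes. Both printed windows carry them, so the letters do not set Apoe apart from Trem2.

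The samples differed widely in total counts. After division of the deposited values by the scaling factor of each sample, the 4 P-ERK1/2 High samples had 650965 to 1539936 counts in total. P-ERK1/2 Low samples reached only 123798 to 157209 counts, and adult samples 1, 4 and 10 between 137980 and 326575. Adult sample 11, marked by the authors as excluded for poor quality, stood apart with 1464449 counts, a geometric mean of 286 for the 6 positive control probes against 954 to 1460 in the other 11 samples, and correlations over all genes of 0.900 to 0.973 with the P-ERK1/2 High samples against 0.781 to 0.813 with the other adult samples. It was left out, and the values with it included are given with the comparisons that involve adult samples. The p-values measure only the spread between these samples, each of them a pool of mice. As these are bulk samples, fewer cells of a type and less RNA per cell cannot be told apart.

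The scaling sets the sign of several differences. The deposited normalized counts bring the geometric mean of 13 housekeeping genes to 172.7 in every sample, and on this scale P-ERK1/2 High minus Low had a median of 0.26 over the log2 fold changes of all genes. Scaling by the positive controls instead, which compares counts per lane whatever the RNA loaded, moved that median to 2.21, and total-count scaling moved it to -0.76. Fold changes are therefore given on the housekeeping scale, as differences of log2(value + 1), followed by their value relative to the median of all genes, which depends far less on the scaling. With the scaling by the median of ratios, the split of called genes was 175 higher to 123 lower in place of 217 to 74, with quantiles 150 to 141, with total counts 59 to 313 and with positive controls 654 to 0.

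On the housekeeping scale, Apoe and Tyrobp were lower in P-ERK1/2 High than in Low microglia, with the signs reversed under positive-control scaling, and Apoe was the member furthest below the median of all genes, also under quantile normalization, the only one of the 7 scalings compared that is no single factor per sample and so can change this order. Syk was also lower, without reaching the fold limit, Trem2 and Inpp5d overlapped between the groups, and Plcg2 lay at the median of all genes. Calls required both an unadjusted p below 0.01 and a log2 difference of more than 1 in size. Of the 6 genes, 2 were called, both lower, where 37.8% of all genes were called, 28.2% higher and 9.61% lower. The groups did not overlap for 3 of the 6, again all lower, where 49.4% of all genes did not overlap and 18.1% did so with P-ERK1/2 High lower. The 6 genes had a median of -0.66, beside 0.26 over all genes. Under positive-control scaling 4 of the 6 were called higher and 0 lower, where 654 and 0 of 770 genes were. Total-count scaling gave 0 higher and 4 lower (59 and 313 of 770), and quantile normalization 0 and 3 (150 and 141). With the housekeeping gene Supt7l left out of the scaling, 0 were called higher and 1 lower (267 and 25).

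**Figure D1:**
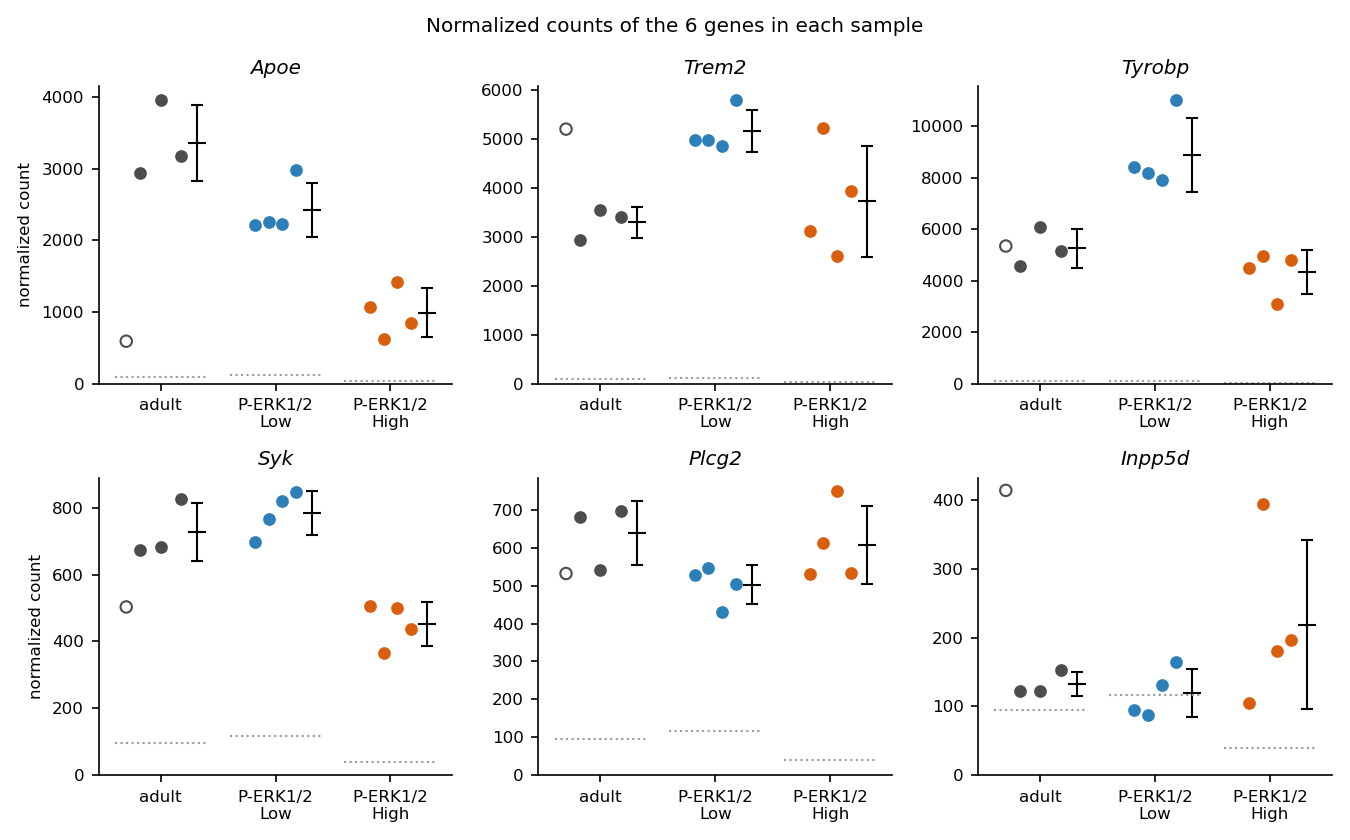
Normalized count (linear axis from 0, housekeeping scale) of each gene in each sample, as filled points for adult, P-ERK1/2 Low and High, with the mean and SD (n = 3, 4 and 4) to their right; the open circle is adult sample 11, and the dotted line is the highest background of the group. Apoe and Syk lie lower in all 4 P-ERK1/2 High samples than in any P-ERK1/2 Low or filled adult sample on this scale (under positive-control scaling both turn for High against Low, and Syk also for High against adult), and only Inpp5d comes near the background.

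Apoe encodes the lipid carrier that serves as a ligand of TREM2. Its normalized count was 2940.5, 3956 and 3177 in adult samples 1, 4 and 10, and 2213, 2254, 2223 and 2978 in P-ERK1/2 Low samples 3, 6, 9 and 12. In P-ERK1/2 High samples 2, 5, 7 and 8 it was 1063, 628, 1422 and 839. Every P-ERK1/2 High value was below every P-ERK1/2 Low value, and sample 12 was the only P-ERK1/2 Low sample to reach the lower end of the adult samples. The log2 fold change of P-ERK1/2 High against Low was -1.34 ± 0.27 (SE; 95% CI -1.93 to -0.75; limma, adjusted p = 0.00156), which placed Apoe at rank 24 from the lowest of 770 genes and at -1.60 relative to their median. It remained called when any single sample was left out, at -1.54 to -1.15. Scaled to positive controls, the same difference was 0.65, within the lowest 3.25% of genes, a rank that a single factor per sample can hardly change.

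Counts per lane show both sides of this result. Per 1000 positive control counts, the P-ERK1/2 High samples gave 833, 878, 1018 and 694 counts of Apoe, and the P-ERK1/2 Low samples gave 463, 560, 667 and 497. On that measure all 4 P-ERK1/2 High samples were above all 4 P-ERK1/2 Low samples. The sources used here do not give the input of RNA or cells per lane, so a level of Apoe per cell cannot be had from these counts.

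Apoe is also abundant in astrocytes, and markers of other cells moved with the groups. The 7 astrocyte markers summed to normalized counts of 1442 to 2164 in P-ERK1/2 High samples, while P-ERK1/2 Low samples gave 610 to 849 and adult samples 494 to 693. In P-ERK1/2 High, 4 of the 7 were above background in all samples and Agt in none. In P-ERK1/2 Low, 2 of the 7 (Gja1 and Sox9) were above background in all samples and the other 5, Aldh1l1 and Slc1a3 among them, in none. On the housekeeping scale Gja1, Sox9 and Kcnj10 were called higher in P-ERK1/2 High than Low, opposite to Apoe. Aldh1l1 was also higher, by 0.67, without a call. The differences of Slc1a3, S100b and Agt had the sign of Apoe and were not called. The part of these markers in the result for Apoe was not tested.

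Trem2 encodes the receptor itself. The normalized counts were 2936, 3552 and 3407 in the adult samples, 4984, 4992, 4869 and 5801 in P-ERK1/2 Low, and 3119, 5228, 2616 and 3948 in P-ERK1/2 High. The P-ERK1/2 High samples spread from below the adult range to within the P-ERK1/2 Low range, with sample 5 the highest. Trem2 differed from P-ERK1/2 Low by -0.52 on the log2 scale (95% CI -1.05 to 0.02; adjusted p = 0.0991 by limma) and stood at -0.77 relative to the median of all genes. Leaving out 1 sample gave -0.69 to -0.36, and without P-ERK1/2 High sample 5 the adjusted p was 0.0191 at -0.69. The adjusted p was 0.00611 under median-of-ratios scaling, 0.000656 under quantile normalization and 0.0169 on the 6 housekeeping genes that varied least, with differences of -0.78, -0.96 and -0.65. With the housekeeping gene Supt7l left out of the scaling, the difference was -0.24 (limma, adjusted p = 0.435). Under positive-control scaling the difference was 1.47 in the opposite direction, and under total-count scaling it was -1.54.

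Tyrobp encodes the adaptor through which TREM2 signals. Adult samples held normalized counts of 4556, 6065 and 5164, P-ERK1/2 Low samples 8416, 8197, 7889 and 11010.4, and P-ERK1/2 High samples 4503, 4954, 3085 and 4783. The P-ERK1/2 Low samples were above all others, while the P-ERK1/2 High samples overlapped the lower end of the adult range. Tyrobp was lower in P-ERK1/2 High by a log2 fold change of -1.05 (SE 0.23; 95% CI -1.55 to -0.54; limma, adjusted p = 0.00286) and stood at -1.30 relative to the median of all genes, with a difference that turned to 0.94 under positive-control scaling. The call rested on single samples: the difference was -0.89 without P-ERK1/2 High sample 7 and -0.94 without P-ERK1/2 Low sample 12, both short of the fold limit. It was also lost, at -0.77 (limma, adjusted p = 0.0140), when the housekeeping gene Supt7l was left out of the scaling.

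Syk encodes the kinase recruited by phosphorylated TYROBP. It stood at 674, 682 and 828 in adult samples, at 698, 768, 821 and 849 in P-ERK1/2 Low samples, and at 508, 365, 499.7 and 437 in P-ERK1/2 High samples. All P-ERK1/2 High values were below all values of both other groups, which overlapped each other. The log2 fold change of P-ERK1/2 High against Low was -0.80 (95% CI -1.26 to -0.35; limma, adjusted p = 0.00677), inside the fold limit, and -1.06 relative to the median of all genes. It passed the fold limit, as -1.07, under scaling by the median of ratios and turned to 1.19 under positive-control scaling. With Supt7l left out of the scaling it was -0.52 (limma, adjusted p = 0.0501).

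Plcg2 and Inpp5d encode the phospholipase that SYK activates and the phosphatase SHIP1 that opposes PI3-kinase. Plcg2 measured 681, 543 and 697 in the adult samples, 529, 547, 431 and 505 in P-ERK1/2 Low, and 531, 613, 750.1 and 533 in P-ERK1/2 High. The ranges of all 3 groups overlapped. The difference between P-ERK1/2 High and Low was 0.26 (95% CI -0.20 to 0.73; limma, adjusted p = 0.313), and 0.01 relative to the median of all genes, and its sign was negative under median-of-ratios, quantile and total-count scaling. With Supt7l left out of the scaling the difference was 0.54 (limma, adjusted p = 0.0465), and under positive-control scaling it was 2.25. The interval on the housekeeping scale reaches past both sides of 0, so neither a difference nor equality follows from it.

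Inpp5d had few counts and varied widely within P-ERK1/2 High. It measured 123, 122 and 153 in the adult samples, 94.9, 87.6, 131 and 164 in P-ERK1/2 Low, and 105, 394, 181 and 196 in P-ERK1/2 High. Sample 5 held the highest value of the 11 samples, sample 2 lay within the P-ERK1/2 Low range, and the groups overlapped. The P-ERK1/2 Low values rest on 25 to 49 counts and were above background in 2 of 4 samples, against all samples of the other groups, which limits what could be detected at this depth. The log2 fold change was 0.75 (95% CI -0.05 to 1.56; limma, adjusted p = 0.105), with -0.27 under total-count scaling. It was 1.03 (limma, adjusted p = 0.0325) with Supt7l left out of the scaling and 2.73 under positive-control scaling. The remaining values are on the housekeeping scale. The log2 fold change was 0.42 without P-ERK1/2 High sample 5 and 1.05 without P-ERK1/2 High sample 2 (limma, adjusted p = 0.268 and 0.0238).

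**Figure D2:**
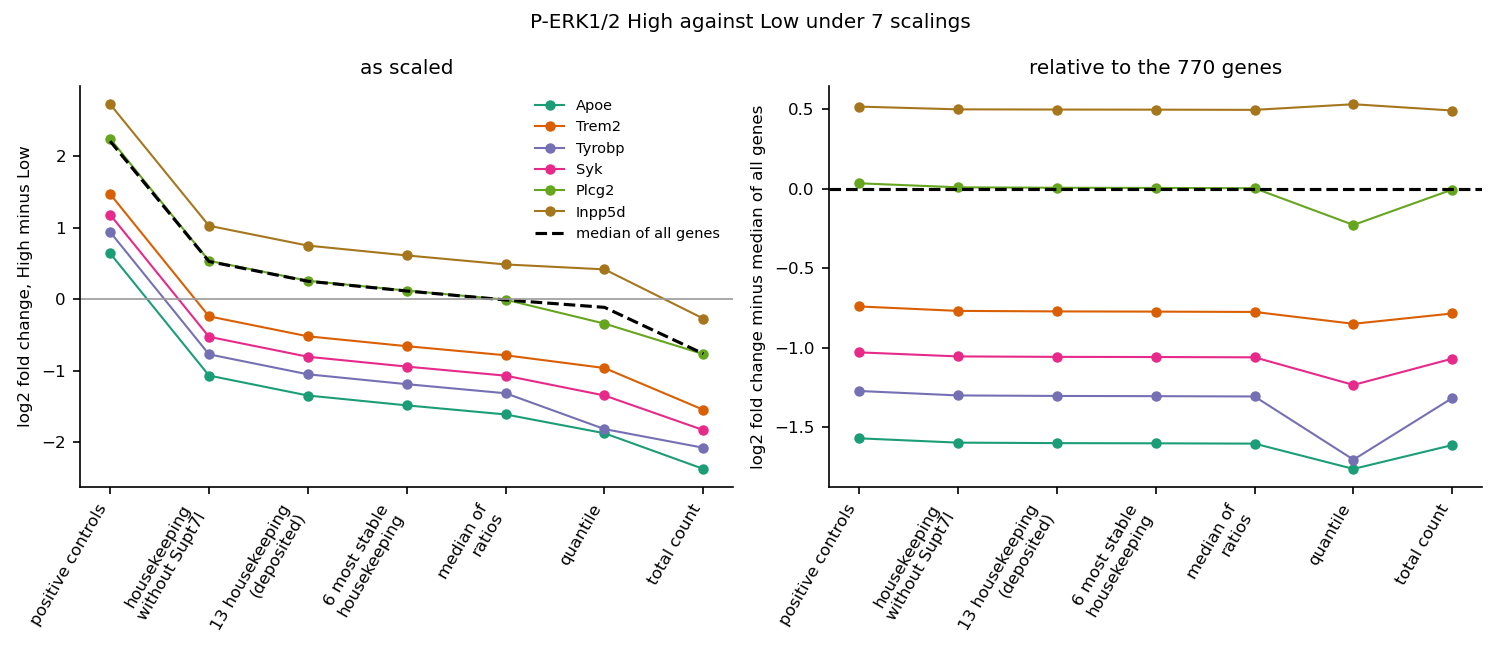
Log2 fold change of P-ERK1/2 High minus Low for each gene under 7 scalings, as scaled (left) and minus the median of all genes under the same scaling (right); the dashed line is that median. The left panel shows Apoe running from 0.65 under positive-control scaling to -2.37 under total-count scaling, whereas the right panel shows it between -1.57 and -1.76, below the other 5 genes also under quantile normalization, the scaling that can change the order.

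Scalings by 1 factor per sample shift all genes nearly alike and can hardly change the order of the 6 genes, and quantile normalization left it the same in P-ERK1/2 High against Low. Relative to the median of all genes, the difference of Tyrobp was -1.70 to -1.27 over the 7 scalings, that of Syk -1.23 to -1.03 and that of Trem2 -0.85 to -0.74. Inpp5d was 0.49 to 0.53 above the median. Quantile normalization gave the values furthest from the others for Apoe, Tyrobp, Syk, Trem2 and Plcg2.

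Ratios between genes of one sample do not depend on the scaling factor, and they were compared for the 15 pairs of the 6 genes. In P-ERK1/2 High against Low, 9 of 15 ratios did not overlap between the groups, where 49.0% of the ratios of all pairs of panel genes did not. The exact two-sided permutation test gave 0.0286 for each of the 9, the smallest p that 4 samples against 4 allow. All of these but one had Plcg2 or Inpp5d as one of the genes. The remaining pair was the receptor and its adaptor.

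The log2 ratio of Trem2 to Tyrobp was -0.76, -0.72, -0.70 and -0.92 in P-ERK1/2 Low samples 3, 6, 9 and 12, and -0.53, 0.08, -0.24 and -0.28 in P-ERK1/2 High samples 2, 5, 7 and 8. Each P-ERK1/2 High sample thus had more Trem2 counts per Tyrobp count than any P-ERK1/2 Low sample. The mean ratio differed by 0.53 (exact permutation p = 0.0286, n = 4 each), and by 0.42 to 0.63 when any one sample was left out. In the adult samples the ratio was -0.63, -0.77 and -0.60, which overlapped the P-ERK1/2 Low range.

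Further along the pathway, the log2 ratio of Syk to Plcg2 was 0.40, 0.49, 0.93 and 0.75 in the P-ERK1/2 Low samples and -0.06, -0.75, -0.59 and -0.29 in the P-ERK1/2 High samples. Probes differ in efficiency, so the level of one gene is not read against the other, and only the shift between groups is: it was -1.06 with no overlap (exact permutation p = 0.0286, n = 4 each). The ratio of Tyrobp to Inpp5d, the activating adaptor to the opposing phosphatase, shifted by -1.80 and that of Apoe to Inpp5d by -2.10 (exact permutation p = 0.0286 for both), with Inpp5d above background in only 2 of the 4 P-ERK1/2 Low samples, so the sizes of shifts against Inpp5d are uncertain.

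Ratios among Apoe, Tyrobp and Syk overlapped between the groups. Tyrobp to Syk differed by -0.25 between P-ERK1/2 High and Low (exact permutation p = 0.429, n = 4 each), Tyrobp to Apoe by 0.30 (p = 0.486) and Apoe to Syk by -0.54 (p = 0.0571). The ratio of Trem2 to Apoe differed by 0.83 (exact permutation p = 0.143) and ranged in P-ERK1/2 High from 0.88 in sample 7 to 3.06 in sample 5. Single P-ERK1/2 High samples moved these differences: Tyrobp to Apoe was 0.028 without sample 5 and 0.65 without sample 7, Tyrobp to Syk -0.42 and -0.038, and Trem2 to Apoe 0.45 and 1.18. The P-ERK1/2 High samples were thus uneven for receptor and ligand.

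**Figure D3:**
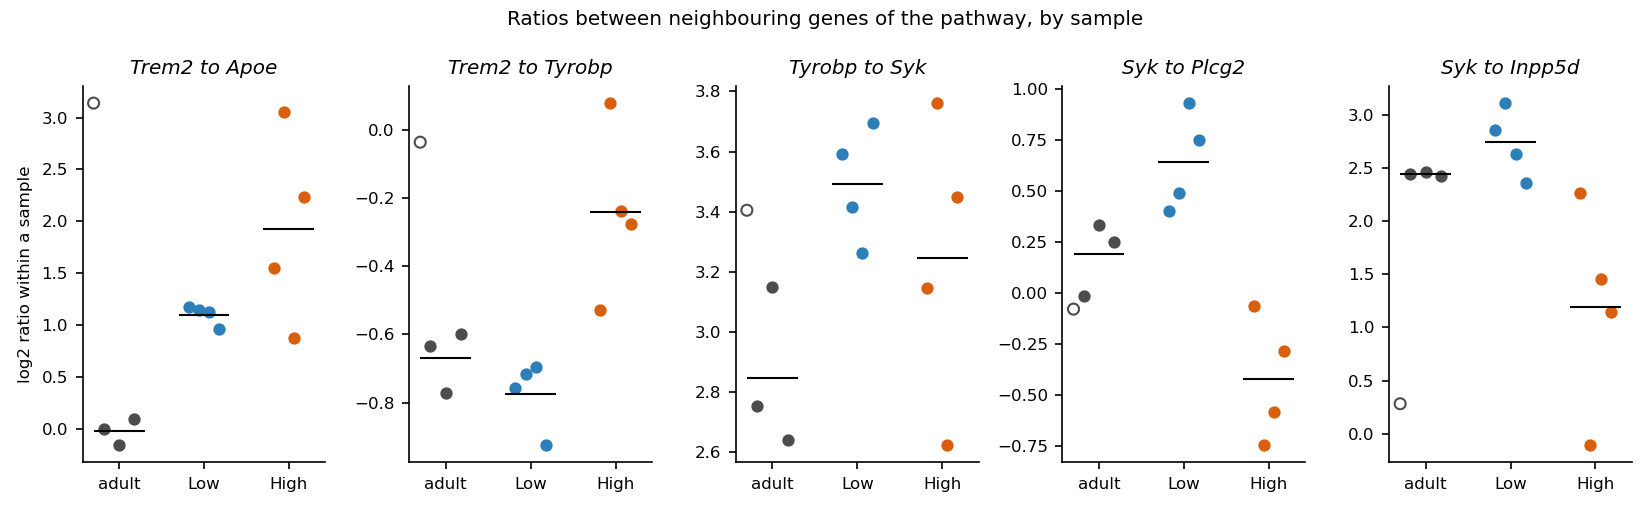
Log2 ratio of the normalized counts of neighbouring genes of the pathway within each sample (y axis, each panel with its own range); points are samples, lines are means of 3 adult, 4 P-ERK1/2 Low and 4 P-ERK1/2 High samples, and the open circle is adult sample 11. P-ERK1/2 Low and High do not overlap for Trem2 to Tyrobp, Syk to Plcg2 and Syk to Inpp5d, and they overlap for Trem2 to Apoe and Tyrobp to Syk.

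In the comparison of P-ERK1/2 Low with adult microglia, the receptor and the adaptor genes were above the adult samples in the aged cells and the ligand gene was not. On the housekeeping scale Trem2 differed by 0.65 ± 0.14 (SE; 95% CI 0.32 to 0.98; limma, adjusted p = 0.0126) and Tyrobp by 0.75 ± 0.18 (95% CI 0.34 to 1.16; adjusted p = 0.0171), and under positive-control scaling both had the opposite sign, -0.17 and -0.06. Neither reached the fold limit, so 0 of the 6 genes were called, where 10.8% of all genes were called, 8.05% higher and 2.73% lower. At an unadjusted p under 0.05, without the fold limit, limma passed 3 of the 6 (Trem2, Tyrobp and Apoe), where 39.2% of all genes passed. The adjusted p was 0.0573 for Trem2 without adult sample 1, and 0.0722 and 0.0575 for Tyrobp without adult samples 1 and 10. The groups did not overlap for Trem2 and Tyrobp, 2 of the 6, where 36.5% of all genes did not overlap and 26.1% did so with P-ERK1/2 Low higher. Relative to the median of all genes Trem2 stood at 0.54 and Tyrobp at 0.65, and under quantile normalization at 0.14 and 0.36. Neither passed an adjusted p under 0.05 with total-count scaling (Trem2 0.26, adjusted p = 0.106; Tyrobp 0.36, adjusted p = 0.0595; limma) or with quantile normalization (0.10, adjusted p = 0.481; 0.31, adjusted p = 0.0560; limma).

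The other 4 genes did not pass an adjusted p under 0.05 in this comparison on the housekeeping scale. Apoe differed by -0.47 (95% CI -0.88 to -0.07; limma, adjusted p = 0.0857), Plcg2 by -0.34 (adjusted p = 0.147), Inpp5d by -0.19 (adjusted p = 0.602) and Syk by 0.11 (adjusted p = 0.624). Apoe did pass under median-of-ratios scaling (-0.62, adjusted p = 0.0305 by limma), total-count scaling (-0.86, adjusted p = 0.00283), quantile normalization (-0.95, adjusted p = 0.0023) and positive-control scaling (-1.29, adjusted p = 0.00604), and without P-ERK1/2 Low sample 12 (-0.58, adjusted p = 0.0443). Plcg2 passed under the same scalings. Its differences were -0.49 with median-of-ratios scaling (limma, adjusted p = 0.0318) and -0.73 with total-count scaling (adjusted p = 0.0227). They were -0.69 with quantile normalization (adjusted p = 0.0266) and -1.16 with positive-control scaling (adjusted p = 0.0140). Under positive-control scaling Inpp5d passed as well (-0.998, adjusted p = 0.0363 by limma), and Apoe and Plcg2 were called lower. With adult sample 11 included, Plcg2 differed by -0.28, Inpp5d by -0.60 and Syk by 0.24. For Syk the sign turned under median-of-ratios, total-count, quantile and positive-control scaling. The log2 ratio of Trem2 to Apoe was 0.00, -0.16 and 0.10 in the adult samples and 1.17, 1.15, 1.13 and 0.96 in P-ERK1/2 Low, a shift of 1.12 with no overlap. In adult sample 11 it was 3.14, above all P-ERK1/2 Low values, and with that sample the shift was 0.33 and the groups overlapped. Of the 15 ratios 10 did not overlap, where 35.3% of the ratios of all pairs of panel genes did not, and the exact permutation p of 0.0571 is the smallest that 4 samples against 3 allow, so no ratio could pass 0.05. With adult sample 11 included, 4 of the 15 ratios did not overlap, where 16.2% over all pairs of panel genes did not, those of Trem2 to Inpp5d, Tyrobp to Plcg2, Tyrobp to Inpp5d and Syk to Plcg2.

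Adult sample 11 weighs on every comparison with the adult group. Its normalized count was 590.3 for Apoe, below all other samples, and 5206 for Trem2, above the other adult samples. With it included, the difference of Trem2 between P-ERK1/2 Low and adult was 0.48 (adjusted p = 0.402 by limma), that of Tyrobp 0.74 (adjusted p = 0.169), and that of Apoe turned to 0.15 (adjusted p = 0.922). Its Tyrobp count of 5341 lay within the adult range, and the P-ERK1/2 Low samples stayed above all 4 adult samples for this gene. Its Inpp5d count of 414 was above every other sample, and its Syk and Plcg2 counts of 503 and 532 were below the other adult samples.

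Among the 6 genes, the ligand was the 1 called between P-ERK1/2 High and adult microglia on the housekeeping scale without adult sample 11. Apoe was lower by a log2 fold change of -1.82 ± 0.31 (SE; 95% CI -2.50 to -1.14; limma, adjusted p = 0.000807), at rank 8 from the lowest of 770 genes and at -2.17 relative to their median, and it was lower under all 7 scalings, though not called under positive-control scaling at -0.64. That is a count of 1 in 6, where 36.9% of all genes were called, 29.2% higher and 7.66% lower. The groups did not overlap for Apoe and Syk, where 50.3% of all genes did not overlap and 15.2% did so with P-ERK1/2 High lower. With adult sample 11 included, Apoe differed by -1.19 (adjusted p = 0.277) and was not called.

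Syk differed from adult by -0.69 (95% CI -1.23 to -0.16; limma, adjusted p = 0.0360), short of the fold limit, and by 0.48 under positive-control scaling. It was called lower under median-of-ratios scaling (-1.09), total-count scaling (-2.11) and quantile normalization (-1.59), and had an adjusted p of 0.159 (limma) with the housekeeping genes without Supt7l (-0.44). The adjusted p was 0.0823, 0.0722 and 0.152 without adult samples 1, 4 and 10 and 0.0507 and 0.0940 without P-ERK1/2 High samples 5 and 8, and with sample 11 included the difference was -0.56 (adjusted p = 0.279). Trem2 differed by 0.13 (95% CI -0.50 to 0.76) and Tyrobp by -0.29 (95% CI -0.87 to 0.28), with adjusted p of 0.727 and 0.376 by limma. Tyrobp was 0.88 under positive-control scaling and was called lower under total-count scaling (-1.71) and quantile normalization (-1.44). The sign for Trem2 was negative under 4 of the other scalings, called lower with total-count scaling (-1.28), and also without P-ERK1/2 High sample 5, at -0.05. Under positive-control scaling Trem2 was higher by 1.31 (limma, adjusted p = 0.0210), not called. Plcg2 differed by -0.08 and Inpp5d by 0.57, with adjusted p of 0.80 and 0.253 by limma, and both changed sign under other scalings. Plcg2 was called lower under total-count scaling (-1.50) and quantile normalization (-1.01), and Inpp5d higher under positive-control scaling (1.73). With adult sample 11 included, the differences were -0.03 for Trem2, -0.30 for Tyrobp, -0.02 for Plcg2 and 0.15 for Inpp5d. The log2 ratio of Trem2 to Apoe was 1.95 higher than in the adult samples with no overlap, which was 1 of 9 such ratios among 15, where 51.1% of the ratios of all pairs of panel genes did not overlap (exact permutation p = 0.0571, the smallest allowed). With adult sample 11 included that shift was 1.16 with overlapping groups, and 0 of the 15 ratios were without overlap, where 9.94% over all pairs were.

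**Figure D4:**
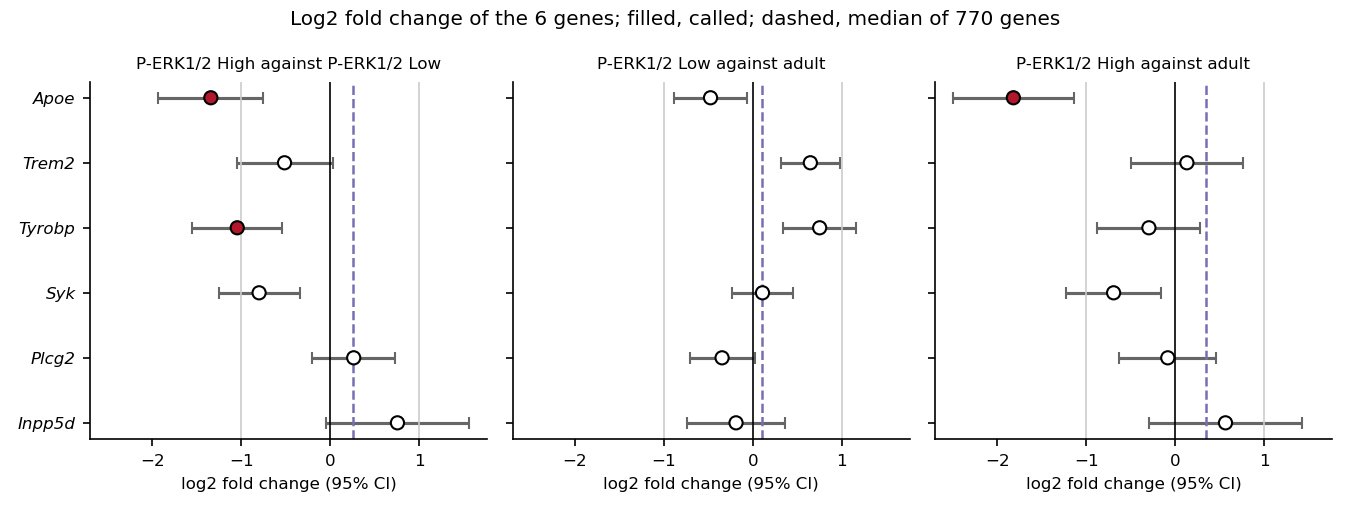
Log2 fold change on the housekeeping scale (x axis) with its 95% confidence interval for the 6 genes in each comparison; filled points were called, grey lines mark a log2 fold change of 1 in each direction, and the dashed line is the median of 770 genes. Apoe lies at -1.34, -0.47 and -1.82 and Tyrobp at -1.05, 0.75 and -0.29, of which the sign of Apoe in the first comparison and all 3 signs of Tyrobp turn under positive-control scaling.

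The order of the group means on the housekeeping scale differed by gene. Apoe ran from adult (3358 ± 531, SD, n = 3) through P-ERK1/2 Low (2417 ± 375, n = 4) to P-ERK1/2 High (988 ± 340, n = 4), with adult and P-ERK1/2 Low overlapping by sample 12. For Trem2 the order was P-ERK1/2 Low (5161 ± 430), P-ERK1/2 High (3728 ± 1141) and adult (3298 ± 322), with P-ERK1/2 High overlapping both other groups. Tyrobp ran from P-ERK1/2 Low (8878 ± 1438) to adult (5262 ± 759) and P-ERK1/2 High (4331 ± 851), with the last pair overlapping. Syk ran from P-ERK1/2 Low (784 ± 66.6) to adult (728 ± 86.5), which overlapped, and P-ERK1/2 High (452 ± 66.4). The means of Plcg2 were 640.03 ± 84.7 in adult, 607 ± 103 in P-ERK1/2 High cells and 503 ± 51.0 for P-ERK1/2 Low, and those of Inpp5d were 219 ± 123 in P-ERK1/2 High, 133 ± 17.8 in adult and 119 ± 35.3 in P-ERK1/2 Low, with every neighbouring pair overlapping. The relative spread (SD over mean) within P-ERK1/2 High was 56.3% for Inpp5d, 34.4% for Apoe, 30.6% for Trem2, 19.7% for Tyrobp, 17.0% for Plcg2 and 14.7% for Syk.

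Across the 11 samples, which share the scaling and the group structure, the genes fell into different pairings. Receptor and adaptor went together (Pearson r of log2 values 0.84), as did ligand and kinase (0.90), whereas Trem2 and Apoe did not (-0.03). Plcg2 ran against Tyrobp (-0.71) and Trem2 (-0.65), and Inpp5d against Syk (-0.65) and Apoe (-0.60). Among the panel genes, close profiles were those of Mbd2, Ltbr and Cd14 for Trem2 (0.95 each) and of Bola2, Csk and Bax for Tyrobp (0.98, 0.97 and 0.95). Apoe was close to Ikbkg, Cd33 and Grn (0.97, 0.95 and 0.95), and Syk to Grn and Ikbkg (0.97 and 0.96). Plcg2 and Inpp5d had less similar neighbours, Gpr84 (0.90), Entpd2 (0.89) and Ttr (0.87) for the first and Rb1cc1 (0.90) and Cyp27a1 (0.89) for the second.

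The lists that follow are to be read against all genes, of which, on the housekeeping scale, P-ERK1/2 High was called higher than Low for 28.2% and lower for 9.61%, and under positive-control scaling for 654 and 0 of 770. Calls for P-ERK1/2 Low against adult were 8.05% higher and 2.73% lower, and 8 and 228 of 770 under positive-control scaling. Those for P-ERK1/2 High against adult were 29.2% higher and 7.66% lower, 421 and 1 of 770 under positive-control scaling, and 49 and 0 of 770 with adult sample 11. Of 9 other receptors and adaptors that signal through ITAMs, Trem3 and Clec7a were called higher and Fcgr1 lower on the housekeeping scale, with 8 higher and 0 lower under positive-control scaling. Clec7a, which encodes the beta-glucan receptor dectin-1, differed by 1.21 and Fcgr1, the high-affinity Fc receptor, by -1.09. As none of the P-ERK1/2 Low samples had Trem3 above background, its bound is at least 1.61-fold higher. Total-count scaling gave 1 higher and 4 lower and quantile normalization 1 and 1. The median of the 9 was 0.27, beside 0.26 over all genes. In P-ERK1/2 Low against adult 1 of 9, Fcgr3, was called, higher by 1.37 (0 higher and 1 lower under positive-control scaling, and 0 called with adult sample 11), and the median was 0.67 beside 0.10. Fcer1g, the adaptor of the Fc receptors and the counterpart of Tyrobp, differed by 0.68 in that comparison and by 0.29 in P-ERK1/2 High against Low, and did not reach the fold limit in either.

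Among the Src-family kinases, which phosphorylate the ITAM, and their inhibitor Csk, 1 of 4 was called in each direction in P-ERK1/2 High against Low on the housekeeping scale. Lyn was lower at -1.08, and Blk, not above background in any P-ERK1/2 Low sample, was at least 1.4-fold higher. Under positive-control scaling 3 were called higher and 0 lower, and under both total-count scaling and quantile normalization 0 higher and 3 lower. Fyn and Csk differed by -0.80 and -0.69 without a call, and the median of the 4 was -0.75 against 0.26 over all genes. None was called in P-ERK1/2 Low against adult.

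Of the 23 measured carriers of the signal after SYK, 6 were called higher and 4 lower between P-ERK1/2 High and Low on the housekeeping scale, the former a share near the 28.2% of all genes, and under positive-control scaling 18 higher and 0 lower. Total-count scaling gave the opposite split of 2 higher and 12 lower, and quantile normalization 5 and 7. The largest rises among them were of Ppp3r1 (2.39), the regulatory subunit of calcineurin, Akt1 (2.35), the kinase that follows PI3-kinase, Bcl10 (1.97), an adaptor towards NF-kappaB, and Pik3cg (1.71), a catalytic PI3-kinase subunit. The called falls were of Was (-1.72), which drives actin branching, Akt2 (-1.29), the exchange factor Vav1 (-1.25) and the PI3-kinase regulatory subunit Pik3r1 (-1.11), all of which turned under positive-control scaling. The related kinases Akt1 and Akt2 thus stood at 2.09 and -1.54 relative to the median of all genes. The median was -0.06 beside 0.26 over all genes. In P-ERK1/2 Low against adult Was alone was called, higher by 1.11, also with adult sample 11 (0 higher and 3 lower under positive-control scaling). Median-of-ratios, total-count and quantile scaling each called 0 of the list there.

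Of 9 genes for receptors with ITIMs and for phosphatases, both of which oppose ITAM signalling, calls between P-ERK1/2 High and Low were 0 higher and 3 lower on the housekeeping scale, and 5 higher and 0 lower under positive-control scaling. Total-count scaling gave 0 higher and 6 lower and quantile normalization 0 and 4. The 3 were Lilrb4a (-1.66), the inhibitory Fc receptor Fcgr2b (-1.39) and, at the fold limit, the sialic acid-binding receptor Cd33. The median was -0.40 against 0.26 over all genes. Ptpn6, which encodes the phosphatase SHP-1, differed by 0.04 and was not called. In P-ERK1/2 Low against adult, Cd72 (2.32) and Fcgr2b (1.06) were called higher, with 1 of the 9 higher and 1 lower under positive-control scaling, and with adult sample 11 Fcgr2b alone.

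Of 8 genes whose rise in disease-associated microglia is known to need TREM2, calls between P-ERK1/2 High and Low were 4 higher and 1 lower on the housekeeping scale, against 28.2% and 9.61% of all genes, and 7 higher and 0 lower under positive-control scaling, against 654 and 0 of 770. Total-count scaling and quantile normalization each gave 2 higher and 2 lower. The 4 were the growth factor Csf1 (2.53), the receptor kinase Axl (2.45), Spp1 (1.97), which encodes osteopontin, and Clec7a (1.21), and the other was Lilrb4a (-1.66). The median of the 8 genes, 1.17, was above that of all genes (0.26), by 0.92. Under quantile normalization, the only one of the 7 scalings that can change this gap by much, it was above by 0.51. Against adult, P-ERK1/2 Low had Igf1 (1.73) and Itgax (1.41) called higher (0 higher and 2 lower under positive-control scaling, and 0 higher with adult sample 11). Cst7 was called lower there, with all its values in both groups at or under background.

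A list drawn up for lipoprotein uptake and sterol handling, which also holds Fabp5 and Grn, went both ways. Calls among its 8 genes between P-ERK1/2 High and Low were 3 higher and 2 lower on the housekeeping scale, and 6 higher and 0 lower under positive-control scaling. Total-count scaling gave 1 higher and 4 lower and quantile normalization 1 and 2. Fabp5, a fatty acid-binding protein, rose by 1.31. Ch25h and Cyp27a1, which make hydroxylated sterols, did not exceed background in any P-ERK1/2 Low sample and were at least 2.13-fold and 1.32-fold higher. Cd36, a scavenger receptor for lipids, differed by -1.56 and Grn, which encodes progranulin, by -1.18. In P-ERK1/2 Low against adult the same receptor gene Cd36 was called higher by 2.48 together with Msr1 (1.71), with 1 of 8 higher and 2 lower under positive-control scaling and Cd36 alone with adult sample 11. Lsr, not above background in P-ERK1/2 Low, was at least 1.2-fold lower. The median in P-ERK1/2 High against Low was 0.39 beside 0.26 over all genes.

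Of 5 other genes near human Alzheimer risk loci, Bin1 (-1.27) and, at the fold limit, Cd33 were called lower in P-ERK1/2 High against Low on the housekeeping scale, with 3 higher and 0 lower under positive-control scaling. Total-count scaling gave 0 higher and 4 lower and quantile normalization 0 and 3. Their median was -0.66 beside 0.26 over all genes. Between P-ERK1/2 Low and adult 0 were called on the housekeeping scale, and 0 higher and 3 lower under positive-control scaling. Against adult, P-ERK1/2 High was called lower for Cd33 (-1.69), Bin1 (-1.26) and Ms4a4a, where 7.66% of all genes were, with 0 called lower under positive-control scaling or with adult sample 11, and Ms4a4a did not exceed background in either group.

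The other lists were compared between P-ERK1/2 High and adult as well, where adult sample 11 and the scaling decided most calls. Over all genes, total-count scaling gave 40 higher and 362 lower and quantile normalization 142 and 138. Of the 8 genes known to need TREM2, 5 were called higher on the housekeeping scale, Csf1 (3.18), Axl (2.74), Igf1 (2.45), Clec7a (2.19) and Spp1 (1.76), with 6 higher under positive-control scaling, 2 higher and 2 lower under total-count scaling, 4 and 1 under quantile normalization and 0 with sample 11 included. Their median was 1.97 beside 0.35 over all genes, and 1.35 with that sample. Of the 9 coupled to ITAMs, Clec7a, Trem3 (2.17) and Fcgr3 (1.89) were called higher, with 5 higher under positive-control scaling, 0 higher and 3 lower under total-count scaling, 2 and 0 under quantile normalization and 0 with sample 11. The carriers after SYK had 7 of 23 called higher and 2 lower, near the 29.2% and 7.66% of all genes, with 10 higher and 0 lower under positive-control scaling and 2 higher, Akt1 and Bcl10, with sample 11. For these carriers total-count scaling reversed the split to 2 higher and 12 lower, and quantile normalization gave 4 and 6. Among the Src-family kinases and Csk, Blk alone was called, at least 2.2-fold higher, and also with sample 11. For that list positive-control scaling gave 1 higher and 0 lower, total-count scaling 0 and 3, quantile normalization 1 and 1 and median-of-ratios scaling 0 and 1. The receptors with ITIMs and phosphatases had 1 called higher, Cd72 (3.49), and 1 lower, Cd33, with 4 higher and 0 lower under positive-control scaling, 1 and 5 under total-count scaling, 1 and 2 under quantile normalization and 0 with sample 11. In the lipoprotein and sterol list, 3 were called higher, Msr1 (2.63), Fabp5 (2.24) and Ch25h, the last by at least 3.34-fold. Called lower were 2, Lsr (-1.45) and Grn (-1.18). Positive-control scaling gave 5 higher and 0 lower, total-count scaling 1 and 3 and quantile normalization 3 and 3. With sample 11, Ch25h alone was called.

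**Figure D5:**
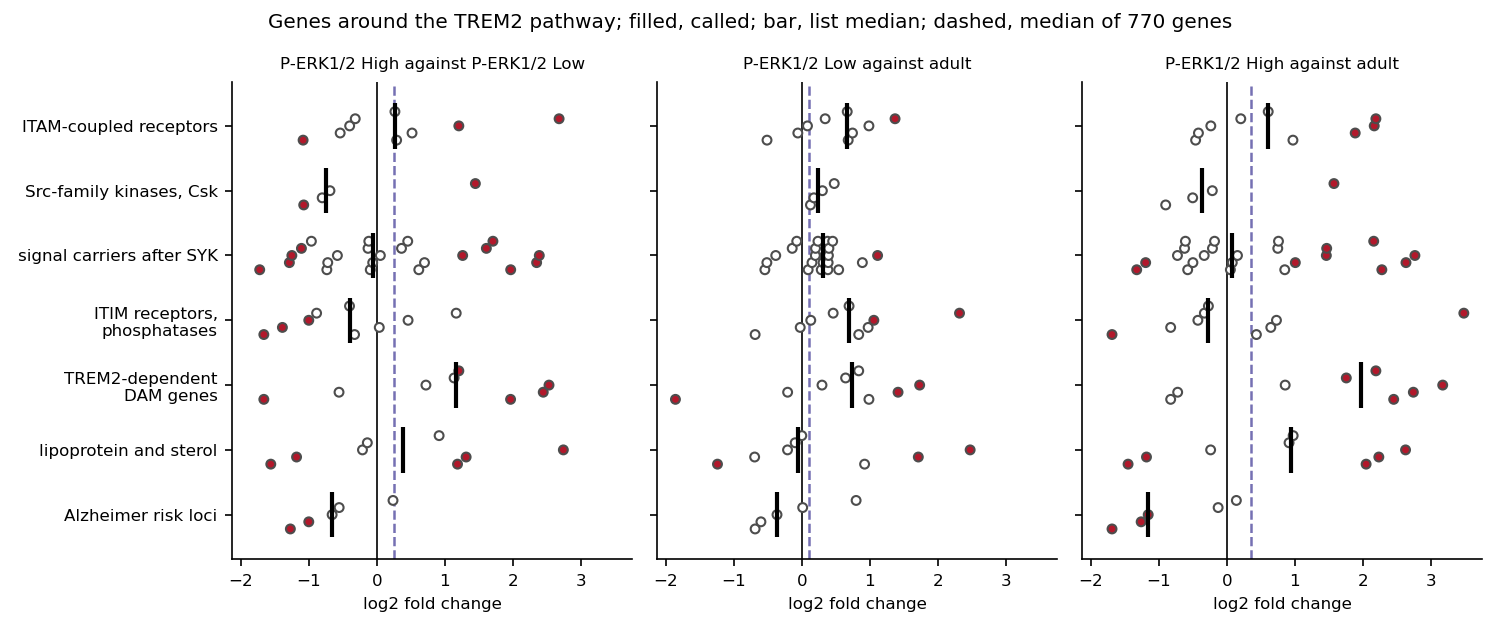
Log2 fold change on the housekeeping scale (x axis) of each gene of 7 lists around the pathway (rows) in each comparison; points are genes, filled where called, bars are list medians and the dashed line is the median of 770 genes. In P-ERK1/2 High against Low the median of the genes known to need TREM2 (1.17) is the highest and that of the Src-family kinases and Csk (-0.75) the lowest, and both stay at the ends under quantile normalization once the median of all genes is subtracted.

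The identity of the cells was checked on 8 homeostatic microglial markers. They summed to normalized counts of 2851 to 3544 in P-ERK1/2 High cells, while P-ERK1/2 Low cells gave 3371 to 3692 and adult cells 3487 to 3801. Csf1r, the largest part of this sum, differed by -0.84 between P-ERK1/2 High and Low without a call (its sign turned under positive-control scaling), while 4 of the 8 were called higher, Tmem119 (2.02), Sall1 (1.70), P2ry12 (at least 1.7-fold) and Gpr34 (at least 1.26-fold). All 8 were above background in every P-ERK1/2 High sample, 5 in every adult sample and 2 in every P-ERK1/2 Low sample, and P2ry12 and Gpr34, which define homeostatic microglia, did not exceed background in any P-ERK1/2 Low sample at that depth. Ly6g, the neutrophil marker of the gate, was above background in none of the 11 samples, while Lcn2 and Csf3r were in all adult samples, and the 3 neutrophil markers together summed to 603 to 949 in adult cells, 283 to 423 for P-ERK1/2 Low and 128 to 489.6 for P-ERK1/2 High. The 4 markers of border macrophages and monocytes summed to 133 to 157 in the P-ERK1/2 High samples against 74.9 to 126 in P-ERK1/2 Low samples, and Cd209e and Marco were above background in no sample. Markers of endothelium summed to 622 to 1257 in P-ERK1/2 High against 207 to 312 in P-ERK1/2 Low, and those of T and NK cells to 251 to 1024 against 115 to 193. In P-ERK1/2 Low, 5 of the 6 endothelial and all 7 T and NK genes were above background in no sample. In P-ERK1/2 High, 4 of 6 and 1 of 7 were above background in all samples, and Tie1, Cd8a and Klrb1 in none. Neuron markers summed to 375 to 559 against 247 to 349, with 3 of 9 above background in all P-ERK1/2 High samples and 0 of 9 in all P-ERK1/2 Low samples. Oligodendrocyte markers (296 to 440 against 369 to 487) and B cell markers (48.2 to 87.9 against 77.9 to 102) overlapped. The part of all these markers in the results for the 6 genes was not tested.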

How the data were processed

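Values were the authors' normalized nCounter counts, deposited as 1 signal value per gene and sample after housekeeping scaling in nSolver (version not given in the sources used here), in a table of 770 genes with 8 negative and 6 positive control probes. Division by each sample's factor gave values whole to within 0.1 for 99.8% of entries, so recovered counts are exact only to that extent. Of the gene names, 763 matched a RefSeq symbol and 7 a synonym. A gene was above background when its count exceeded the mean plus 2 SD of the negative controls, and bounds ("at least") use that level in each sample of the dim group, all its values being at or under it.

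All 770 genes were fitted, on log2(value + 1) and for each comparison on its own groups, by limma 3.58.1 under R 4.3.3, two-sided, with Benjamini-Hochberg adjustment, after the fit was tested on simulated data. Calls follow the thresholds of the study's volcano plots (p under 0.01 and a log2 difference beyond 1), with the p taken unadjusted. Ratios of pairs were compared by exact permutation (scipy 1.17.1). The 6 genes and the gene lists were chosen with earlier results of these data known. Named list genes are those called, up to 4 per direction, or covered by a count of 5 or fewer; Fcer1g, Fyn, Csk and Ptpn6 were named in addition, after their values were seen. For each of the 6 genes the 3 most correlated genes were taken, of which some are not reported here. Alternatives covered the pseudocount, a filter, 6 scalings, background subtraction, the spread estimate, the test, the threshold and each sample left out. Counting precision is limited by the totals given, lowest in P-ERK1/2 Low.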

Additional observations from a re-analysis of the deposited data

Results flagged for a closer look

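In groups of 4, the sample at one end was compared with the range of its group, a test that flags about 1 group in 20 by chance. P-ERK1/2 Low sample 12 stood above the other 3 samples of its group for Trem2, at a normalized count of 5800.6, and for Apoe, at 2978.2. It also had the smallest total count, 123798. Adult sample 11 stood below the other adult samples for Apoe, at 590.28. In the same sample, which no main comparison uses, Trem2 at 5206.2 and Inpp5d at 414.2 were above all 3 other adult samples. The reasons for these values were not tested.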

How the results depend on the processing

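The number of samples, the few counts in P-ERK1/2 Low and the choice of scaling limit these results. Of the recomputed values, 627 kept their direction and their side of the threshold or moved by less than the spread between samples, 26 changed sign, 20 came to pass a threshold, 5 no longer passed it and 19 moved further, and among the 627 were all 180 of the log2 ratios between pairs in P-ERK1/2 High against Low. The cause of each change listed here was not tested. Positive-control scaling and subtraction of the negative controls were chosen after seeing the data. In P-ERK1/2 High against Low, positive-control scaling gave log2 fold changes of 1.47 for Trem2, 0.94 for Tyrobp, 0.65 for Apoe, 1.19 for Syk, 2.25 for Plcg2 and 2.73 for Inpp5d, with 654 genes called in place of 291. Total-count scaling gave -1.54 for Trem2, -1.83 for Syk, -0.76 for Plcg2 and -0.27 for Inpp5d, median-of-ratios scaling -1.07 for Syk and -0.0026 for Plcg2, and quantile normalization -1.34 for Syk and -0.34 for Plcg2. Housekeeping genes without Supt7l, the most variable of the 13, gave -0.77 for Tyrobp, which was then not called. They gave -0.24 for Trem2, -0.52 for Syk, 0.54 for Plcg2 and 1.03 for Inpp5d. Syk (-0.80) passed an adjusted p under 0.05 without the fold limit, and the plain test with unequal variances called 189 genes.

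In P-ERK1/2 Low against adult, positive-control scaling gave -0.17 for Trem2, -0.064 for Tyrobp, -1.29 for Apoe, -0.71 for Syk and -1.16 for Plcg2, with 236 genes called in place of 83. Syk was -0.040 under median-of-ratios scaling, -0.28 under total-count scaling and -0.29 under quantile normalization. Trem2 (0.65) and Tyrobp (0.75) passed an adjusted p under 0.05 without the fold limit, as did 201 genes, and with the spread shared by all kept samples their adjusted p was 0.0905 and 0.0518. With all 4 adult samples Apoe was 0.15, 34 genes were called, and 9 of the 15 log2 ratios moved by more than the spread between samples. The plain test called 54 genes. Subtraction of the negative controls turned the split of calls from 62 higher and 21 lower to 55 and 59.

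In P-ERK1/2 High against adult, positive-control scaling gave 1.31 for Trem2, 0.88 for Tyrobp, -0.64 for Apoe, 0.48 for Syk, 1.09 for Plcg2 and 1.73 for Inpp5d. Total-count scaling gave -1.28 for Trem2, -1.71 for Tyrobp, -2.11 for Syk, -1.50 for Plcg2 and -0.84 for Inpp5d. Quantile normalization gave -0.74 for Trem2, -1.44 for Tyrobp, -1.59 for Syk and -1.01 for Plcg2. Median-of-ratios scaling gave -0.26 for Trem2 and -1.09 for Syk, the 6 most stable housekeeping genes -0.10 for Trem2, and those without Supt7l 0.17 for Plcg2. Syk (-0.69) passed the adjusted p without the fold limit. With all 4 adult samples Trem2 was -0.034, Apoe -1.19 and no longer called, 49 genes were called in place of 284, and 2 of the 15 ratios moved. The plain test called 173 genes.

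Leaving out 1 sample at a time gave -1.12 to -0.89 for Tyrobp in P-ERK1/2 High against Low and -0.047 to 0.29 for Trem2 in P-ERK1/2 High against adult. Genes called were then 235 to 310, 75 to 95 and 225 to 303 in the 3 comparisons in the order given. No paired analysis was possible because no sample number occurs in more than 1 group and the labels do not show which P-ERK1/2 High and Low samples may share mice. The planned test on a count model was not run.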
